A study of Ogataea parapolymorpha with 16 samples.

Results

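Transcript levels of the complex I-deficient strain IMD010 were compared with those of its parent CBS11895 in glucose-limited chemostat cultures grown at 0.1 per h. The members are the 4 libraries of these cultures, 2 of IMD010 and 2 of CBS11895, out of 16 libraries in the series (2 for each strain in each of 4 growth modes, namely batch, chemostat at either of 2 dilution rates, and retentostat). All 5408 genes in the files were read by locus tag, and 5233 of them passed the filter on low values. CBS11895, also known as DL-1, is a wild-type strain of the yeast Ogataea parapolymorpha. IMD010 was derived from it as a single colony and carries an insertion of 1 cytosine in NUBM, which shifts the reading frame of the gene for an essential subunit of complex I, so it represents 1 clone. Both strains were grown on glucose in aerated bioreactors with the same synthetic medium, temperature and pH.

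Respiratory complex I is a large enzyme of the mitochondrial inner membrane that passes electrons from NADH to ubiquinone and pumps protons while doing so. Many yeasts also have, or have only, type II NADH dehydrogenases (Ndh2), single proteins that carry out the same oxidation without pumping protons. In O. parapolymorpha both routes feed the same respiratory chain, and a strain without complex I must oxidize its NADH through other enzymes. In a chemostat the dilution rate sets the growth rate, so the strains were compared here at an equal growth rate under glucose limitation.

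Levels are given as TMM-normalized FPKM, here read counts divided by sequencing depth and by 1 deposited length value per gene. Each library was scaled by trimmed means of log ratios. Levels can be compared between cultures for 1 gene but not between genes, because the length by which the deposited values were divided, 1 to 1120, never equaled the annotated length. An equal level, or an equal limit on levels, therefore stands for different read numbers in different genes. The 4 libraries held 17272957 to 19989575 reads. The IMD010 cultures were far apart. Over all genes tested, the SD of the log2 difference between them was 0.889, against 0.135 between the CBS11895 cultures at 0.1 per h and 0.145 to 0.282 in the 6 other groups. Replicate 1 of IMD010 lay far from the CBS11895 mean (SD of the log2 differences 0.966), and replicate 2 lay close to it (SD 0.271). Levels are therefore given for each culture. Each library comes from an independent culture, and no source used here says that equal replicate numbers mark a shared day.

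With both IMD010 cultures, levels of 57 genes were higher (1.09% of the genes tested) and levels of 11 genes were lower (0.21%) in IMD010, by a log2 fold change above 1 at a false discovery rate (FDR, from limma) below 0.05. At the study's stricter limits, a log2 fold change above 2 and an FDR below 0.001, 3 genes were higher (0.0573%) and 1 gene was lower (0.0191%), and with a replicate block none was. Without TMM factors, which moved the median log2 fold change of all genes from −0.06 to 0.05, the counts at the wider limits were 46 higher and 19 lower genes. The counts rested heavily on 1 culture. Replicate 1 alone gave 663 higher (12.7%) and 974 lower genes (18.6%), and replicate 2 alone gave 21 higher (0.401%) and 12 lower genes (0.229%). In these single-culture fits the lone culture was assumed to vary like the cultures of the other groups. The IMD010 cultures did not, with an SD of 0.889 between them against at most 0.282 in any other group. The FDRs of the single-culture fits are therefore too low, and calls that use them are descriptions. A fit of only the 4 libraries at 0.1 per h called no gene with limma, since its lowest FDR was 0.577, while 173 genes had an unadjusted p below 0.05 (3.31%). A fit that weights each library by its scatter also called none, with 258 genes at an unadjusted p below 0.05, so the calls rest on a spread shared with the other groups.

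Differences that held were those called with both cultures and, in the same direction, with each IMD010 culture alone. There were 25 such genes (0.478%), of which 17 were higher (0.325%) and 8 were lower (0.153%) in IMD010. Because both single-culture fits use the same CBS11895 cultures, this count is a description of the data and not a test. In 22 of the 25 genes, replicate 1 lay further from CBS11895 than replicate 2 did. This is no trait of these genes, since replicate 1 was also further out over all genes tested (SD 0.966 against 0.271). No gene was called in opposite directions in the IMD010 cultures. Without CBS11895 replicate 1 the count was 10 higher and 2 lower genes, all 12 of them among the 25. Without CBS11895 replicate 2 it was 12 and 3, of which 13 were among the 25.

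**Figure D1:**
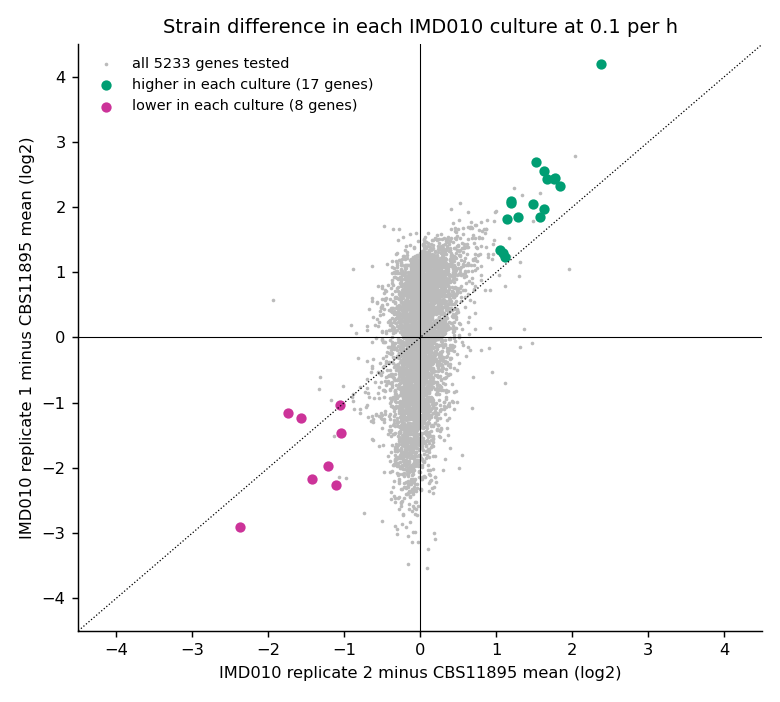
Each point is 1 gene, placed by its log2 difference from the CBS11895 mean at 0.1 per h in IMD010 replicate 2 (x axis) and in IMD010 replicate 1 (y axis); the dotted line marks equal values, green points are the 17 genes higher and purple points the 8 genes lower in each culture. The cloud of 5233 genes is tall and narrow, with an SD of 0.966 along the axis of replicate 1 and 0.271 along that of replicate 2.

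Of the genes for NADH dehydrogenases, only NDH2-1 (HPODL_02792, chromosome VII, 732181 to 733794) was among the differences that held. Ndh2-1 is one of the 3 type II NADH dehydrogenases of this yeast. Its level was 241 and 244 in the CBS11895 cultures and 1327 and 832 in the IMD010 cultures, which were both over 3 times as high. Both IMD010 cultures lay above both CBS11895 cultures in 27.7% of all genes tested. The log2 fold change of NDH2-1 with both cultures was 2.11 (standard error 0.19, FDR = 0.00048), against 2.45 with replicate 1 alone and 1.77 with replicate 2 alone. NDH2-1 was therefore past the study's limit of 2 on the log2 scale with both cultures and with replicate 1, but not with replicate 2. Among all groups its level was lowest in CBS11895 at 0.025 per h (87.0 and 104) and highest in the batch cultures of CBS11895 (2989 and 3364). The IMD010 cultures at 0.1 per h stood between the batch cultures and all other glucose-limited cultures, the highest of which was IMD010 at 0.025 per h (294 and 348).

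The other type II enzymes did not share this difference. NDH2-2 (HPODL_00256), annotated as an external NADH dehydrogenase of mitochondria, measured 1482 and 1469 in CBS11895 and 1643 and 1150 in IMD010, with IMD010 cultures on either side of CBS11895. NDH2-3 (HPODL_02018) measured 204 and 218 in CBS11895 and 312 and 164 in IMD010, again on either side. Their log2 fold changes were −0.10 (standard error 0.17, FDR = 0.639) and 0.10 (standard error 0.23, FDR = 0.722). The CCP1 ortholog HPODL_03354, cytochrome c peroxidase, which passes electrons from cytochrome c to hydrogen peroxide in the mitochondrial intermembrane space, measured 33341 and 31900 in CBS11895 and 35478 and 31251 in IMD010. Its log2 fold change was 0.03 (standard error 0.15, FDR = 0.881).

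None of the 7 essential and none of the 23 accessory subunits of complex I was called with both cultures, against 1.3% of all genes tested. The mutated gene NUBM (HPODL_04625) still gave a transcript, at 3039 and 2949 in CBS11895 and 4017 and 4001 in IMD010. Since the insertion leaves the gene in place, this level cannot check the strain labels. The IMD010 cultures agreed closely for NUBM and both lay above CBS11895, by 0.42 on the log2 scale (standard error 0.14), but the FDR was 0.0866. NUGM (HPODL_03393) and NUKM (HPODL_02758), subunits of the arm that carries electrons to ubiquinone, differed between the IMD010 cultures. NUGM measured 468 and 445 in CBS11895 against 1220 in replicate 1 and 513 in replicate 2 of IMD010. NUKM measured 430 and 401 in CBS11895 against 902 and 415. Both genes were called higher with replicate 1 alone (log2 fold changes 1.42 and 1.12), and with replicate 2 alone their log2 fold changes were 0.17 and −0.00131.

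The remaining essential subunits had smaller differences. NUIM (HPODL_02101) measured 715 and 687 in CBS11895 and 1054 and 917 in IMD010, 0.49 higher on the log2 scale (FDR = 0.0886). NUHM (HPODL_01287) measured 440 and 409 in CBS11895 and 480 and 461 in IMD010, 0.15 higher on the log2 scale (FDR = 0.574). For NUAM (HPODL_03689) and NUCM (HPODL_01297), replicate 1 lay below and replicate 2 lay above both CBS11895 cultures. The NUAM values were 1869 and 3218 against 2692 and 2865 in CBS11895, and the NUCM values were 6038 and 9084 against 7674 and 7140. Accessory subunits, which surround the catalytic core, had a median log2 fold change of 0.18, where that of all genes was 0.05. The range among them was from −0.57 (NUXM, HPODL_00687) to 0.78 (NUZM, HPODL_02157), with no FDR below 0.0907. NUXM measured 738 and 749 in CBS11895 against 364 in replicate 1 and 693 in replicate 2 of IMD010. NUZM measured 565 and 529 in CBS11895 against 1344 and 658. Both values thus rested mainly on replicate 1. With replicate 1 alone 2 accessory subunits were called higher (8.7%, against 12.7% of all genes tested) and 1 was called lower (4.35%, against 18.6%). With replicate 2 alone none was called, where 0.401% of all genes were called higher and 0.229% lower.

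**Figure D2:**
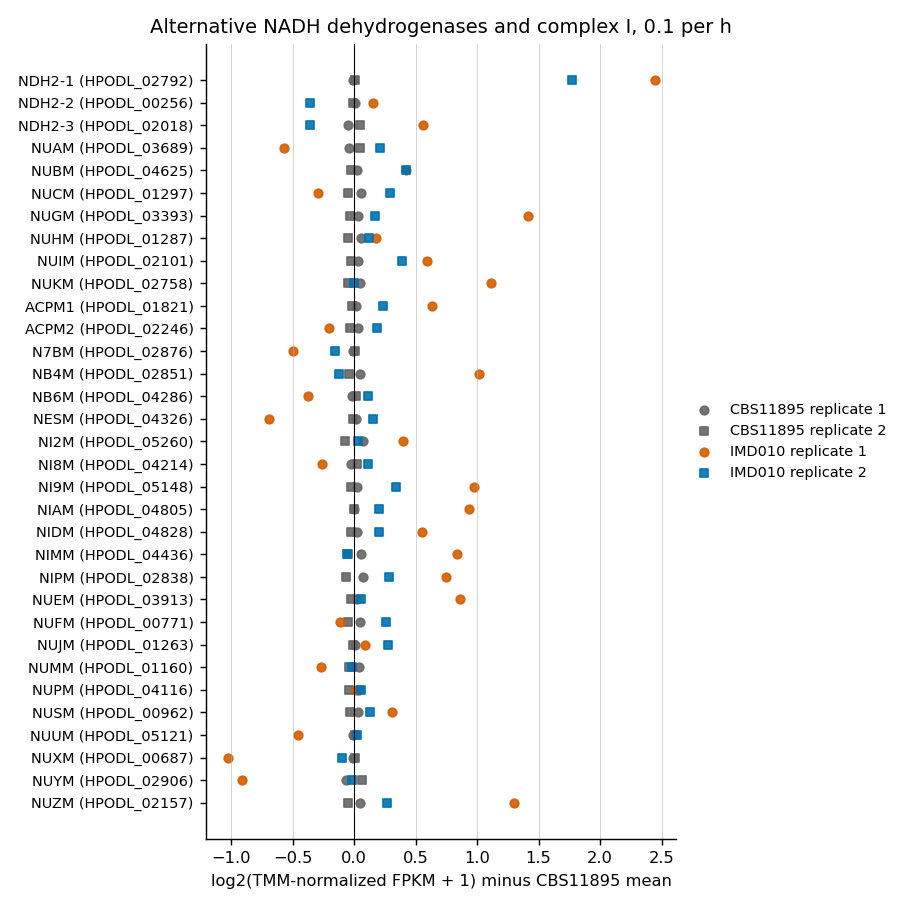
Level of the 3 type II NADH dehydrogenases, the 7 essential and the 23 accessory complex I subunits in each culture at 0.1 per h, as log2(TMM-normalized FPKM + 1) minus the CBS11895 mean of the gene; gray marks are CBS11895, orange circles IMD010 replicate 1 and blue squares IMD010 replicate 2. NDH2-1 is apart from CBS11895 in each IMD010 culture (2.45 and 1.77), while for the subunits the blue squares lie between −0.16 and 0.42 and the orange circles spread from −1.03 to 1.42.

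Product names were at hand for 1999 of the 5408 genes, those with the lowest locus tag numbers, of which 611 are hypothetical proteins. Of the 25 genes that held, 6 had an informative product name and NDH2-1 was named by the study. Among the higher genes, HPODL_01819 encodes aspartate aminotransferase 1, an enzyme that interconverts aspartate and oxaloacetate with glutamate and 2-oxoglutarate. It measured 1212 and 1268 in CBS11895 and 4464 and 3694 in IMD010, and its IMD010 cultures were close to each other. The log2 fold change was 1.71 (standard error 0.21, FDR = 0.00217), with 1.85 in replicate 1 and 1.57 in replicate 2. HPODL_01785, named as the pyrimidine precursor enzyme THI13 of thiamine synthesis, measured 108648 and 96778 in CBS11895 and 434829 and 233596 in IMD010. Here replicate 1 was nearly double replicate 2, and the log2 fold change was 1.64 with both cultures (FDR = 0.00805), 2.08 with replicate 1 alone and 1.19 with replicate 2 alone. HPODL_00500, annotated as the phosphate transporter PHO84, which in Saccharomyces cerevisiae takes up inorganic phosphate with high affinity, measured 135 and 139 in CBS11895 and 577 and 316 in IMD010. Its log2 fold change was 1.63 (standard error 0.22, FDR = 0.00351), with 2.07 in replicate 1 and 1.20 in replicate 2. THI13, PHO84 and the 5 genes below them in log2 fold change were outside the 10 highest and are named after their values were seen.

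No informative product name was at hand for the other higher genes that held. HPODL_04104 (chromosome V, 611678 to 613819) measured 253 and 250 in CBS11895 and 1356 and 857 in IMD010, which is a log2 difference of 2.09 (standard error 0.19, FDR = 0.00048). HPODL_02840 (chromosome VII, 805869 to 806834) measured 26.4 and 26.2 in CBS11895 and 146 and 85.5 in IMD010, which is a log2 difference of 2.05 (standard error 0.21, FDR = 0.000812). With NDH2-1 these were the 3 higher genes past the study's limits, and their values alone were 2.42 and 1.76 for HPODL_04104 and 2.43 and 1.66 for HPODL_02840. HPODL_02415 measured 330 and 322 in CBS11895 (97 and 83 reads) and 1926 and 1005 in IMD010 (441 and 283 reads). HPODL_02517 measured 70.4 and 65.5 in CBS11895 and 342 and 246 in IMD010. HPODL_03812 measured 66.1 and 68.2 in CBS11895 and 438 and 195 in IMD010. In log2 terms IMD010 exceeded CBS11895 by 2.09, 2.08 and 2.10, with an FDR between 0.0011 and 0.00621. IMD010 replicate 1 was the higher culture for all 3, most clearly for HPODL_03812, where it was over 2 times replicate 2.

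HPODL_01779, a hypothetical protein, measured 111 and 110 in CBS11895 and 433 and 343 in IMD010 (log2 fold change 1.79, FDR = 0.000646). HPODL_05107 measured 44.8 and 30.4 in CBS11895 and 155 and 105 in IMD010 (log2 fold change 1.76, FDR = 0.00217). The remaining 5 higher genes had log2 fold changes from 1.18 to 1.56. HPODL_04102 measured 24.9 and 19.2 in CBS11895 and 81.0 and 54.4 in IMD010. HPODL_02892 measured 127 and 122 in CBS11895 and 439 and 276 in IMD010. HPODL_00090 measured 46.86 and 46.03 in CBS11895 and 119 and 96.8 in IMD010. Replicate 1 was the higher IMD010 culture in all 3. Agreement between the IMD010 cultures was closer for HPODL_00006 (18.0 and 16.6 against 6.50 and 7.72 in CBS11895) and HPODL_02312 (1134 and 987 against 462 and 467). HPODL_00006 had 25 to 61 reads and was not called with a pseudocount of 10, where its log2 fold change was 0.67, or in a fit of the 12 glucose-limited samples (FDR = 0.0501).

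The highest fitted value belonged to HPODL_03769, and it rested on very few reads. This gene, at 2010 to 3104 on chromosome V near the end of the chromosome, had 0 reads in both CBS11895 cultures, 10 reads in IMD010 replicate 1 and 3 reads in replicate 2. Its level of 17.2 and 4.20 in IMD010 against a listed 0 gives no fold change. The neighboring genes HPODL_03768, HPODL_03770 and HPODL_03771 had 0 to 5 reads in the 4 cultures. In the retentostat cultures of IMD010, HPODL_03769 had 873 and 897 reads.

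Among the 8 lower genes that held, HPODL_03374 (chromosome IV, 622847 to 623125) was the one past the study's limits. It measured 1466 and 1353 in CBS11895 and 186 and 271 in IMD010, so replicate 1 was the lower of the IMD010 cultures. The log2 fold change was −2.64 (standard error 0.21, FDR = 0.000396), with −2.91 in replicate 1 and −2.37 in replicate 2. It was past the study's limit of 2 on the log2 scale with either culture alone. This unnamed gene, 279 bp long, was low in both strains in batch cultures (27.0 to 49.5) and highest in CBS11895 at 0.025 per h (6823 and 7348).

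HPODL_00582, annotated as a peroxisomal nudix pyrophosphatase that acts on coenzyme A and its derivatives, measured 17523 and 17457 in CBS11895 and 7419 and 5883 in IMD010. Its log2 fold change was −1.40 (standard error 0.17, FDR = 0.00243). It was 1 of the 3 genes for which replicate 2 lay further from CBS11895 than replicate 1 (−1.57 against −1.24). HPODL_00285, named as the stress protein DDR48, measured 133 and 122 in CBS11895 and 31.6 and 54.4 in IMD010 (log2 fold change −1.59, FDR = 0.0152). HPODL_00905, named as a salicylate hydroxylase, measured 29.6 and 33.9 in CBS11895 (59 reads each) and 5.81 and 14.2 in IMD010 (9 and 27 reads). The log2 fold change of HPODL_00905 was −1.69 (FDR = 0.0157) and rests on these few reads. Replicate 1 was the lower culture for both, and with replicate 2 alone the FDR was close to the limit, at 0.0472 for DDR48 and 0.0226 for HPODL_00905.

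The other 4 lower genes have no product name here. HPODL_04797 measured 7269 and 6672 in CBS11895 and 1553 and 2589 in IMD010 (log2 fold change −1.80, FDR = 0.00971). HPODL_03318 measured 289 and 265 in CBS11895 and 123 and 82.1 in IMD010 (−1.45, FDR = 0.0193). HPODL_03025 measured 23187 and 22327 in CBS11895 and 8276 and 10984 in IMD010 (−1.25, FDR = 0.00323). HPODL_02720 measured 130 and 124 in CBS11895 and 60.9 and 60.2 in IMD010 (−1.05, FDR = 0.0185), with the IMD010 cultures nearly equal. The size of this last difference lay close to the limit of 1. HPODL_02720 was not called with a pseudocount of 10 or with a length trend removed (log2 fold change −0.95 in each). With either CBS11895 culture left out it was not called, nor were HPODL_04797, HPODL_03318, DDR48 and HPODL_00905.

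**Figure D3:**
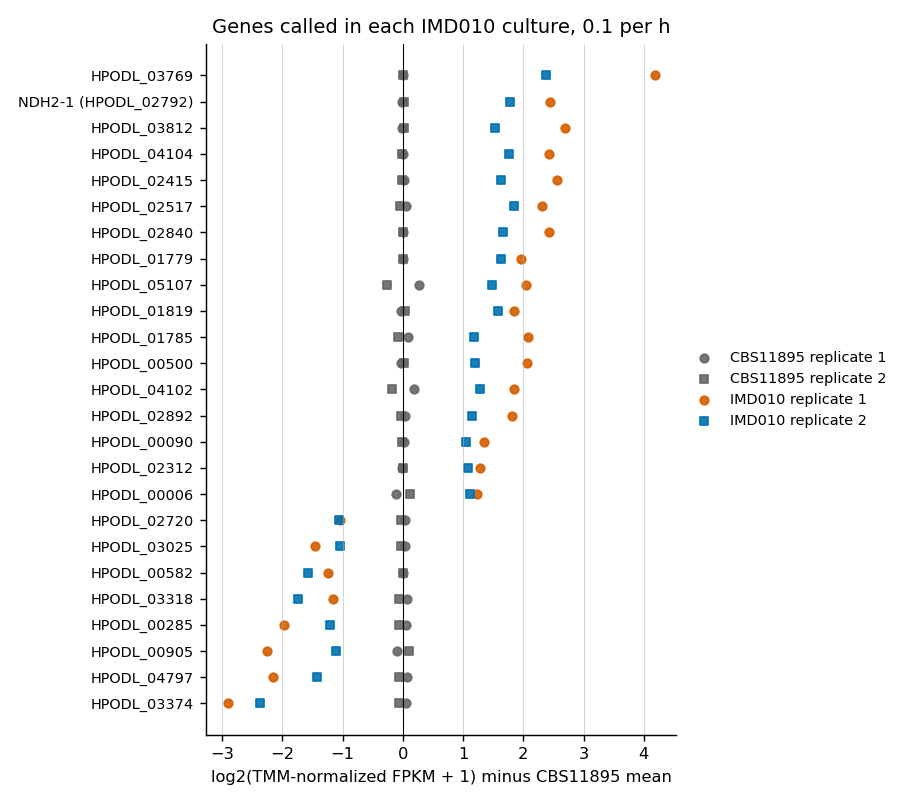
The 25 genes called in both IMD010 cultures together and in each alone, ordered by log2 fold change; marks give each culture at 0.1 per h as log2(TMM-normalized FPKM + 1) minus the CBS11895 mean, with gray for CBS11895, orange circles for IMD010 replicate 1 and blue squares for IMD010 replicate 2. Orange circles lie further out than blue squares in 22 genes; the values of HPODL_03769 rest on 10 and 3 reads and depend on the constant of 1 that was added.

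The 25 genes were spread over all 7 chromosomes. HPODL_04102 and HPODL_04104 on chromosome V lay 2305 bp apart with 1 annotated gene between them, and HPODL_01779 and HPODL_01785 on chromosome VI lay 9447 bp apart. The median annotated length was 1314 bp for the higher and 714 bp for the lower genes, against 1209 bp for all genes tested. After a trend with gene length was removed from each library, 24 genes held, of which 23 were among the 25.

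The strain difference was also measured at 0.025 per h, in other cultures of both strains. Of the 17 higher genes, 10 were also higher there at an FDR below 0.05 (0.955% of all genes tested were), and of the 8 lower genes, 4 were also lower (0.535% of all genes). The log2 fold changes at 0.025 per h were 1.74 for NDH2-1, 1.75 for HPODL_04104, 1.76 for HPODL_02840, 1.73 for HPODL_01819 and 1.97 for HPODL_05107. They were −2.33 for HPODL_03374, −1.48 for HPODL_00582 and −2.48 for HPODL_03318. HPODL_02415 had a log2 fold change of 0.32 at 0.025 per h (409 and 321 in IMD010 against 300 and 279 in CBS11895), beside 2.09 at 0.1 per h. The difference between these strain effects, 1.77 on the log2 scale (standard error 0.40), had an FDR of 0.54. With limma no gene had a difference between the strain effects at 0.1 and 0.025 per h past a log2 value of 1 and an FDR of 0.05, and 299 genes (5.71%) had an unadjusted p below 0.05.

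Genes called with both cultures but not held were mostly high in replicate 1. Of the 57 higher genes 40 and of the 11 lower genes 2 were called with replicate 1 alone but not with replicate 2 alone. Mitochondrial malate dehydrogenase (HPODL_00710), which makes oxaloacetate in the citric acid cycle, measured 333741 and 312935 in CBS11895 and 916843 and 499246 in IMD010. Its log2 fold change of 1.07 (FDR = 0.029) was 1.50 in replicate 1 and 0.63 in replicate 2, where the size missed the limit of 1. The peroxiredoxin TSA1 (HPODL_00527), which breaks down hydrogen peroxide, measured 165 and 155 in CBS11895 and 554 and 313 in IMD010, with 1.79 in replicate 1 and 0.97 in replicate 2. The general amino acid permease GAP1 (HPODL_01635) measured 38.8 and 41.5 in CBS11895 and 126 and 71.0 in IMD010, with 1.63 and 0.81. A lysine permease (HPODL_00012) measured 15.9 and 15.5 in CBS11895 and 62.9 and 32.4 in IMD010. Mitochondrial threonine-tRNA ligase (HPODL_00300) measured 401 and 370 in CBS11895 and 1158 and 571 in IMD010. In each of these 5 genes both IMD010 cultures lay above both CBS11895 cultures. Without TMM factors the log2 fold changes of HPODL_00710 and HPODL_00300 were 0.955 and 0.965, under the limit of 1. In a fit of the 12 glucose-limited samples TSA1 was the only one of the 5 still called, since the FDR of the others was 0.0542 to 0.113. Over all genes tested, both IMD010 cultures lay above both CBS11895 cultures in 27.7% and below both in 27.4%.

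Replicate 2, the culture near CBS11895, had 4 higher and 4 lower genes of its own that replicate 1 did not share as a call. They are named here although they were chosen after their values were seen. For HPODL_00888, ornithine transaminase, which takes part in arginine and ornithine breakdown, the values were 620 and 648 in CBS11895 and 325 and 280 in IMD010. It was called with both cultures together (log2 fold change −1.07, FDR = 0.00243) and just missed the limit of 1 in replicate 1 (−0.96). The other lower genes, HPODL_03634, HPODL_01389 and HPODL_02606, had log2 fold changes of −0.61 to −0.79 in replicate 1 and −1.02 to −1.33 in replicate 2. HPODL_03061 measured 42471 and 43884 in CBS11895 and 74617 and 93598 in IMD010, with 0.79 in replicate 1 and 1.12 in replicate 2. In contrast, the other higher genes were high in replicate 2 alone among the cultures at 0.1 per h. HPODL_05130 measured 32.7 and 32.3 in CBS11895 and 30.4 and 91.4 in IMD010. HPODL_05007 measured 121 and 118 in CBS11895 and 108 and 298 in IMD010, and HPODL_04519 measured 2.69 and 2.13, and 2.71 and 7.78. In each other growth mode HPODL_05130 was higher in both IMD010 cultures, for example in batch (112 and 105 against 13.7 and 15.6 in CBS11895). For HPODL_05007 and HPODL_04519 the strains overlapped at 0.025 per h.

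Lists of genes by function, formed from words in the product names, had few calls with both cultures, where 1.3% of all genes tested were called. At that share, a list of this size with no or 1 called member cannot be set apart from all genes. No member of the lists for glycolysis (6 genes), ATP synthase (4), pentose phosphate pathway (3), fatty acid oxidation (4), heat shock proteins (10), cytosolic ribosomal proteins (29), mitochondrial ribosomal proteins (14), ribosome biogenesis (30), histones (8), DNA replication (15), sugar transporters (8), amino acid biosynthesis (19), iron and copper uptake (6), autophagy (5), proteasome (8), storage carbohydrates (3), methanol metabolism (1), gluconeogenesis and the glyoxylate cycle (4) or complexes II to IV (6) was called with both cultures. Among the peroxisome genes (15) HPODL_00582 alone was called. Single genes were called in the citric acid cycle (1 of 7), the defence against reactive oxygen species (1 of 8) and the aminoacyl-tRNA synthetases (1 of 19), and 2 of 22 amino acid and nitrogen transporters were called, all of them named above. Without TMM factors the calls in the citric acid cycle and the aminoacyl-tRNA synthetases were lost.

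With replicate 1 alone the medians of the lists were further apart. Of the 30 ribosome biogenesis genes, 16 were lower and 2 were higher, with a median log2 fold change of −1.08, where the median of all genes was 0.11. Among the 29 cytosolic ribosomal proteins 9 were lower and 1 was higher (median −0.61), and 4 of the 8 histone genes were lower (log2 fold changes of all 8 from −2.64 to −0.36). In the other direction, 4 of 8 sugar transporters (median 0.82), 7 of 22 amino acid and nitrogen transporters (median 0.84) and 3 of 6 iron and copper uptake genes (median 0.91) were higher. The share over all genes with this culture was 12.7% higher and 18.6% lower. That share varied with annotated length, and 30.6% of all genes over 300 and up to 600 bp were lower. The median lengths of the cytosolic ribosomal proteins (558 bp) and histones (396 bp) fall in that range, and the 31% of ribosomal proteins that were lower is close to its share. Among all genes over 1000 and up to 2000 bp, the range that holds the median length of the ribosome biogenesis genes, 13.8% were lower, against 53.3% of that list. With replicate 2 alone, where 0.401% of all genes were called higher and 0.229% lower, none of these 6 lists had a called member, a count too small to read anything from, and their medians lay between −0.26 and 0.08.

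The member of each lower list with the lowest value in replicate 1 shows how far apart the IMD010 cultures could be, not the usual difference. The pre-rRNA processing protein ESF1 (HPODL_00950), which acts in the assembly of the small ribosomal subunit, measured 247 and 287 in CBS11895 and 30.4 and 303 in IMD010. The ribosomal protein L31 gene (HPODL_00596) measured 953 and 982 in CBS11895 and 189 and 876 in IMD010. A histone H4 gene (HPODL_01892) measured 3189 and 3354 in CBS11895 and 524 and 2956 in IMD010. In all 3 genes replicate 1 was far below and replicate 2 was near the CBS11895 cultures. Reads that mapped to several places were removed upstream, so levels of near-identical copies such as histone genes are uncertain. The glucose transporter HXT3 (HPODL_00453) differed from these, as its IMD010 cultures were close to each other. It measured 171 and 103 in CBS11895 and 460 and 372 in IMD010, 1.63 higher on the log2 scale with an FDR of 0.0815 (1.79 in replicate 1 and 1.48 in replicate 2). PEP carboxykinase (HPODL_00509), which starts gluconeogenesis and is in none of these 6 lists, measured 4486 and 4038 in CBS11895 and 11670 and 6231 in IMD010, with an FDR of 0.0843 for both cultures together.

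**Figure D4:**
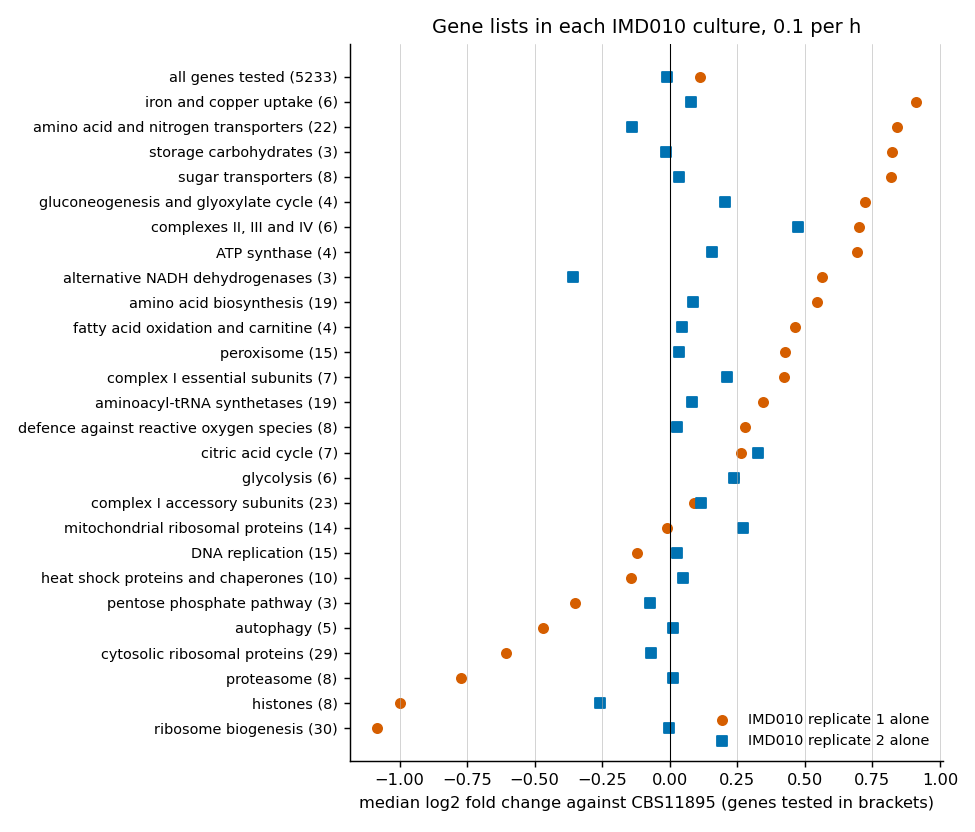
Median log2 fold change against CBS11895 at 0.1 per h of each gene list with at least 3 genes, with IMD010 replicate 1 alone (orange circles) and IMD010 replicate 2 alone (blue squares); the number of genes tested is in brackets. Orange circles run from 0.91 for iron and copper uptake to −1.08 for ribosome biogenesis, and blue squares stay between −0.36 and 0.47.

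Between the IMD010 cultures themselves, 465 genes were higher (8.89%) and 877 lower (16.8%) in replicate 1 by more than 1 on the log2 scale. The lowest values in replicate 1 relative to replicate 2 were those of the splicing factor gene CWC24 (HPODL_01518), HPODL_02474, HPODL_03975, ESF1 and HPODL_04667, with log2 differences from −3.62 to −3.18. CWC24 measured 34.3 and 30.7 in CBS11895, 34.5 in IMD010 replicate 2 and 1.89 in replicate 1. Of the 5 highest, HPODL_04836, HPODL_03225 and HPODL_01453 had log2 differences from 1.95 to 2.19. The other 2 rested on few reads, namely 2 in replicate 1 and 0 in replicate 2 for HPODL_03027 and 28 and 9 for HPODL_05072. Their log2 differences are therefore left out here. HPODL_03225 measured 2123 and 2259 in CBS11895, 1711 in IMD010 replicate 2 and 6957 in replicate 1. In CWC24 and HPODL_03225 alike, replicate 2 was near CBS11895 and replicate 1 was apart.

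The difference between the IMD010 cultures varied with gene length and resembled a difference between batch cultures. In replicate 1, the median log2 difference from CBS11895 was −0.48 for the 80 genes of up to 300 bp and −0.36 for the 687 genes over 300 and up to 600 bp, and it was 0.28 for the 2319 genes over 1000 and up to 2000 bp. It was lower again for longer genes, at 0.17 for the 633 genes over 2000 and up to 3000 bp and 0.07 for the 324 genes over 3000 bp. In replicate 2 the medians of all 6 length classes lay between −0.08 and 0.02. Across the 5233 genes, the log2 difference of replicate 1 minus replicate 2 had a Pearson correlation of 0.852 (Spearman 0.849) with the log2 difference of CBS11895 minus IMD010 in batch cultures, which are other libraries of the series. After the trend with gene length was removed, the correlation was 0.877. Genes are not independent replicates, and this is a description. Of the 21 pairs that can be formed from the other 7 groups, the 6 with CBS11895 in batch had correlations from 0.547 to 0.852, and the other 15 had an absolute correlation of at most 0.236. Replicate 2 lay nearer than replicate 1 to the mean of each other group except CBS11895 in batch. The SD of the log2 differences from IMD010 at 0.025 per h was 0.583 for replicate 2 and 1.15 for replicate 1. From CBS11895 in batch it was 1.41 for replicate 2 and 1.06 for replicate 1. What set replicate 1 apart was not tested, and with 2 cultures it cannot be told which of them is typical of IMD010 at 0.1 per h.

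**Figure D5:**
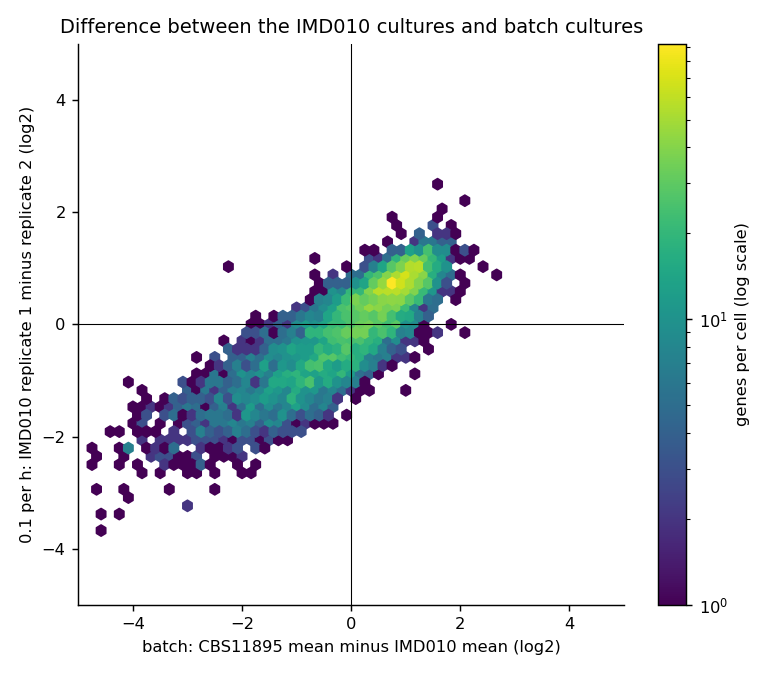
Genes counted in hexagons by the log2 difference of CBS11895 minus IMD010 in batch cultures (x axis, means of 2 cultures each) and by the log2 difference of IMD010 replicate 1 minus replicate 2 at 0.1 per h (y axis); color gives the number of genes on a log scale, and 1 gene lies outside the axes. The cloud runs along a rising line, with a Pearson correlation of 0.852 over 5233 genes, although the axes share no library.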

How the data were processed

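Messenger RNA of glucose-grown O. parapolymorpha cultures was sequenced as strand-specific paired-end libraries. The authors aligned reads to the RefSeq assembly of CBS11895 with STAR (version 2.5.3a), removed ambiguously mapped reads, counted per transcript with HTSeq and used edgeR for TMM normalization; the strand setting of the counting is not given in the sources used here. The deposited values are FPKM, 1 file per sample. Because FPKM of a gene are whole multiples of the value of 1 read, reads were recovered for 5400 genes (8 genes were 0 throughout), with all values whole within 0.01; their sums were 16522183 to 20898682 per library over all 16 samples. TMM factors were computed from these reads (trims of 30% and 5%), and the FPKM were scaled with them. A gene was kept if its mean FPKM reached 10 in any of the 8 groups, after the study's filter.

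log2(FPKM + 1) was fitted with limma 3.58.1 in R 4.3.3, 1 fit of 16 samples with 8 group means and no block, with two-sided moderated tests and Benjamini-Hochberg adjustment over 5233 genes. A difference held if it passed a log2 fold change of 1 and an FDR of 0.05 in this fit and in each of 2 fits without the other IMD010 culture. The scripts were tested on simulated data. Named genes were NUBM, other essential subunits, the NDH2 genes and CCP1; the 10 highest and 10 lowest that held; all past the study limits; the 5 highest and 5 lowest of replicate 1 minus replicate 2; and up to 4 per list, here the 2 with the largest absolute change. The comparison, the lists and the rules were chosen with earlier results of these data known. Word matches in product names were kept as they fell, so that 2 of the 6 genes listed under complexes II to IV are maturation or assembly factors. Positions come from RefSeq. Replicates are independent cultures, and p-values of the 16-sample fit use a spread between cultures that is shared by the 8 groups. The IMD010 cultures at 0.1 per h were further apart than those of any other group. In a fit without 1 of them, the remaining culture adds nothing to that spread. TMM scaling assumes that most genes do not change. Alternatives tried are other scalings, pseudocounts, filters, sample sets, weights, a replicate block, removal of a length trend (loess, span 0.3) and leaving out each culture.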

Additional observations from a re-analysis of the deposited data

How the results depend on the processing

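Counts are given as higher and lower genes. At the study's limits, 3 and 1 genes became 0 and 1 without TMM factors and 0 and 0 in the fit of 4 samples, in that of the 12 glucose-limited samples, with sample weights, with a replicate block, and with a replicate block and the length trend removed. Past a log2 fold change of 1, 57 and 11 became 46 and 19 without TMM factors, 30 and 7 with the 12 glucose-limited samples, and 0 and 0 with 4 samples or sample weights, as did the 17 and 8 that held. The replicate block left 55 and 12 genes, of which 18 and 7 held. Replicate 1 minus replicate 2 at 0.1 per h had a correlation of 0.286 between the strains. Between IMD010 at 0.1 per h and the groups from other growth modes or rates, this correlation ran from −0.319 to 0.413. The value of 0.286 lies within that range, and 2 pairs cannot establish a pairing. Leaving out 1 culture at a time gave 0 to 14 and 0 to 154 genes at the study's limits, 11 to 663 and 3 to 974 past a log2 fold change of 1, and 10 to 12 and 2 to 3 that held; for the difference from the strain effect at 0.025 per h, 0 became 492 and 844 without IMD010 replicate 2 and stayed at 0 in the other 3 cases. The number that held cannot be given without an IMD010 culture. Other settings left these counts within 1.5 times. All 25 genes kept their direction in all 18 alternatives. Between 20 and 25 of them held under the 12 settings that keep every culture at 0.1 per h, the 4-sample fit and the fit with sample weights set aside. The kept direction is no test. The alternatives include the 2 fits without an IMD010 culture by which the genes were selected, and the others refit the same values. Of the 25, the call with both cultures was lost by HPODL_03769, HPODL_02720 and HPODL_00006 with a pseudocount of 10, by HPODL_02720 with the length trend removed, and by HPODL_00905, HPODL_00285, HPODL_03318 and HPODL_00006 with the 12 glucose-limited samples (FDR 0.0501 to 0.0712). With either CBS11895 culture left out it was lost by HPODL_03769, HPODL_03812, HPODL_02415, HPODL_01785, HPODL_02892, HPODL_00006, HPODL_04797, HPODL_00905, HPODL_00285, HPODL_03318 and HPODL_02720. It was also lost by HPODL_00500 and HPODL_03025 without CBS11895 replicate 1, and by HPODL_04102 without CBS11895 replicate 2.

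No named gene called with both cultures changed direction, but others did. For NUCM (HPODL_01297) the log2 fold change was −0.110 without TMM factors, −0.0365 with median-of-ratios factors, −0.00395 with voom weights and −0.0623 with the length trend removed, with or without the replicate block, and −0.29 to 0.30 with 1 culture left out. For the CCP1 ortholog (HPODL_03354) it was −0.0809 without TMM factors, −0.00724 with median-of-ratios factors and −0.0088 with the length trend removed, with or without the block, and −0.0615 to 0.12 with 1 culture left out. Without TMM factors it was −0.00711 for NDH2-3 and −0.0328 for HPODL_05072. With 1 culture left out the range was −0.36 to 0.16 for NDH2-2, −0.36 to 0.56 for NDH2-3, −0.57 to 0.21 for NUAM, −0.00131 to 1.12 for NUKM, −0.89 to 1.04 for HPODL_05072, −1.94 to 0.58 for HPODL_03027, −0.48 to 1.71 for HPODL_04836, −0.36 to 1.67 for HPODL_03225, −0.28 to 1.67 for HPODL_01453, −3.53 to 0.0856 for CWC24, −3.24 to 0.10 for HPODL_02474, −3.09 to 0.19 for ESF1, −3.01 to 0.17 for HPODL_04667, −0.14 to 1.31 for HPODL_05007, −0.0931 to 1.46 for HPODL_05130, −0.0155 to 1.25 for AHP1, −0.0147 to 0.92 for HPODL_00566, −1.16 to 0.18 for HPODL_01108 and −1.49 to 0.12 for HSP42. The values of HPODL_05072 and HPODL_03027 rest on few reads, 0 to 2 in each culture for HPODL_03027, and are not read as changes of direction. The cause of the changes was not tested. TMM factors moved the median log2 fold change of all genes from −0.06 to 0.05.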
